A study of Mus musculus with 2 samples.

Results

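In long-read RNA sequencing of the mouse adrenal gland, 59 genes had, as their most abundant full-length splice form, a form that the GENCODE M21 annotation does not hold. They were chosen from the reads themselves. For each gene, the full-length reads were summed, a gene needed at least 20 of them in each library, and the form with most reads had to be unannotated, with the same chromosome, strand and intron chain in both libraries. Of 3030 genes with enough reads, 65 (2.15%) met this rule, and Srd5a2, Oaz1, Oaz2, Mpc1, Idh3g and Mrpl33 were then left out by name. In 2916 of the 3030 genes an annotated form led in both libraries. Bag6 and Traf7 would have met the rule only if a tie for most reads had counted as a lead.

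The tissue was the adrenal gland of male B6CASTF1/J mice, an F1 cross of C57BL/6J and CAST/EiJ, at 36 days of age, with no treatment given in the labels. There were 2 libraries in 1 group, called replicate 1 and replicate 2, so no condition was compared with another. The labels disagree on whether 1 animal or different animals gave the libraries. The p-values below set a difference between these libraries against counting error only, and such a difference may be technical. The libraries held 452437 and 463102 endogenous reads.

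A long read can cover a transcript from end to end, and it shows which of the splice sites it spans were joined in 1 molecule. Introns usually open with GT (the donor) and close with AG (the acceptor), and a cell can choose between nearby donors or acceptors, leave an exon out, or start and end a transcript elsewhere. The authors' files sort reads into classes. Full-length reads here are those called Known, which follow an annotated transcript, NIC, which join annotated sites in a new combination, and NNC, which use at least 1 site that is not annotated. Reads that follow only part of a transcript (incomplete splice match, ISM) were kept apart.

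The summed level of the 6 adrenal cortex markers (Cyp11a1, Star and others) was 65859 CPM (counts scaled to the library's endogenous reads) in replicate 1 and 53440 CPM in replicate 2. That of the 6 medulla markers, such as Chga and Th, was 10483 and 15409 CPM. All 6 markers of each list were detected in both libraries. The 6 markers of pancreatic acinar cells had 0 reads in replicate 1 and 2211 reads, or 4774 CPM, in replicate 2, and 4 liver markers had 1 and 186 reads. Other markers were found at similar levels in both libraries, given here with replicate 1 first. Those of fat (5 genes) had 3258 reads (7201 CPM) and 3178 reads (6862 CPM). Those of red blood cells (3 genes) had 1861 reads (4113 CPM) and 1603 reads (3461 CPM), and those of macrophages 278 and 322 reads. The part of all these other tissues and cells in the values below was not tested. Over 8135 genes the libraries differed with a chi-square of 4.16 per degree of freedom, above counting error.

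The 59 genes held 3544 full-length reads in replicate 1 and 3167 in replicate 2. Of these, 2092 and 1837 belonged to the leading unannotated form, against 670 and 731 that followed any annotated transcript of the same gene. In 9 of the 59 genes the annotated reads, all transcripts and both libraries summed, exceeded those of the leading form, among them Cyhr1 (93 in the leading form, 135 annotated), Aldh1l1 (43 and 67) and Cuedc2 (22 and 52). The leading forms carried 6.37% and 6.27% of all NIC and NNC reads. Within a gene the leading form took a median of 56.7% of full-length reads in replicate 1, with a range of 20.0% to 100%, and 55.8% in replicate 2, with a range of 22.7% to 100%. These shares chose the genes and are given as a description. The form exceeded 90% or equalled it in 8 genes in replicate 1 and 7 in replicate 2, and was under 50% in 24 and 26 genes. The median number of forms seen per gene was 8 in replicate 1 and 7 in replicate 2. In 15 of the 59 genes no read in either library followed an annotated transcript.

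**Figure D1:**
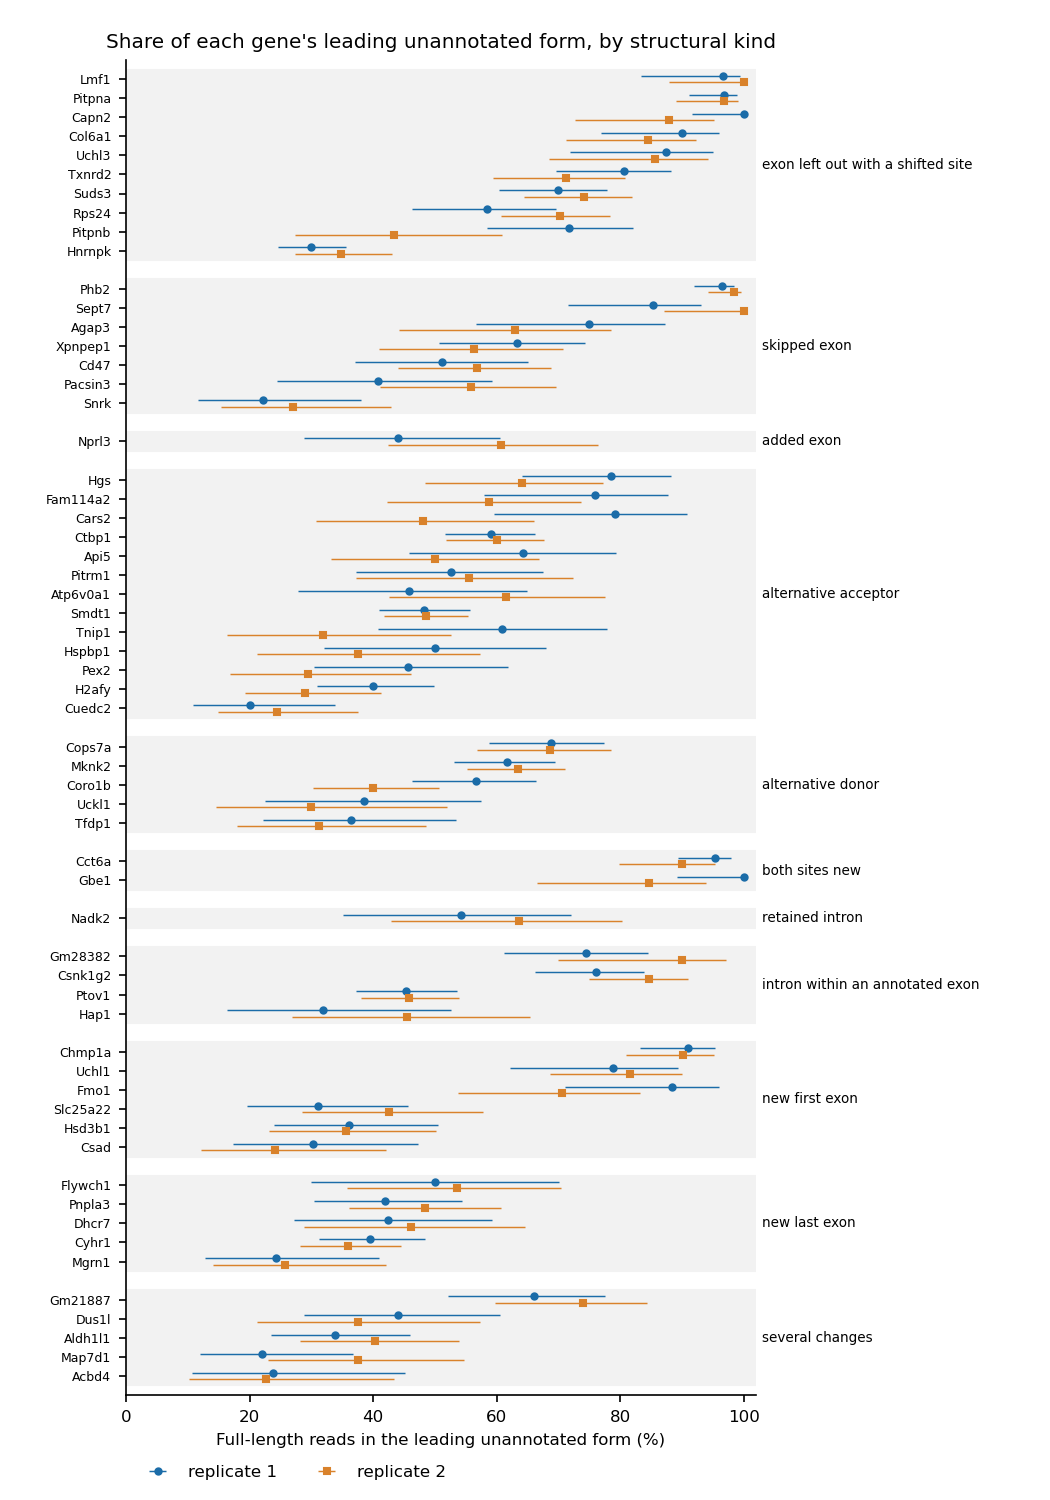
Share of each gene's full-length reads in its leading unannotated form (x axis, percent) for the 59 genes (y axis), grouped by how the form differs from the annotated transcript sharing most introns. Circles are replicate 1, squares replicate 2, and bars Wilson 95% intervals, which cover counting error only. Forms that left out an exon with a shifted site have a median of 84.0% in replicate 1 and 79.3% in replicate 2, and those with a moved acceptor 52.6% and 48.5%.

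Protein-coding genes made up 57 of the 59, beside the lincRNA Gm28382 and Cct6a, a chaperonin subunit gene that the annotation types as a processed transcript. The authors classed the leading form as NIC in both libraries in 38 genes, NNC in both in 16, and differently in the 2 libraries in 5 (Hnrnpk, Capn2, Hap1, Pitpnb and Uckl1), although the intron chain was the same. Set against all M21 splice sites, 35 forms held only annotated junctions in an unannotated combination, 1 (Sept7) joined annotated sites by a new junction, and 23 used at least 1 unannotated site. The genes were more richly annotated than most, with a median of 8 annotated transcripts against 5 over the 3030 genes. Their longest annotated transcript had a median of 12 exons, against 7.

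Each leading form was set against the annotated transcript with which it shared most introns. An acceptor was moved in 13 forms, and in 10 an annotated exon was left out while a neighbouring splice site shifted. A further 7 forms skipped an exon, 6 began with another first exon, 5 used another donor, 5 ended in another last exon, and 5 combined several changes. In 4 forms an intron was cut from within an annotated exon, in 2 both sites of an intron moved, in 1 an exon was added, and in 1 an annotated intron was kept. For comparison, 205 NIC or NNC forms with at least 5 reads in each library were found in genes led by an annotated form. An exon left out with a shifted site made up 16.9% of the 59 leading forms and 1.46% of these 205. A moved donor made up 8.47% and 22.4%, a kept intron 1.69% and 10.7%, and a skipped exon 11.9% and 11.7%. No test was made on these shares, since the forms had been chosen by their reads.

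**Figure D2:**
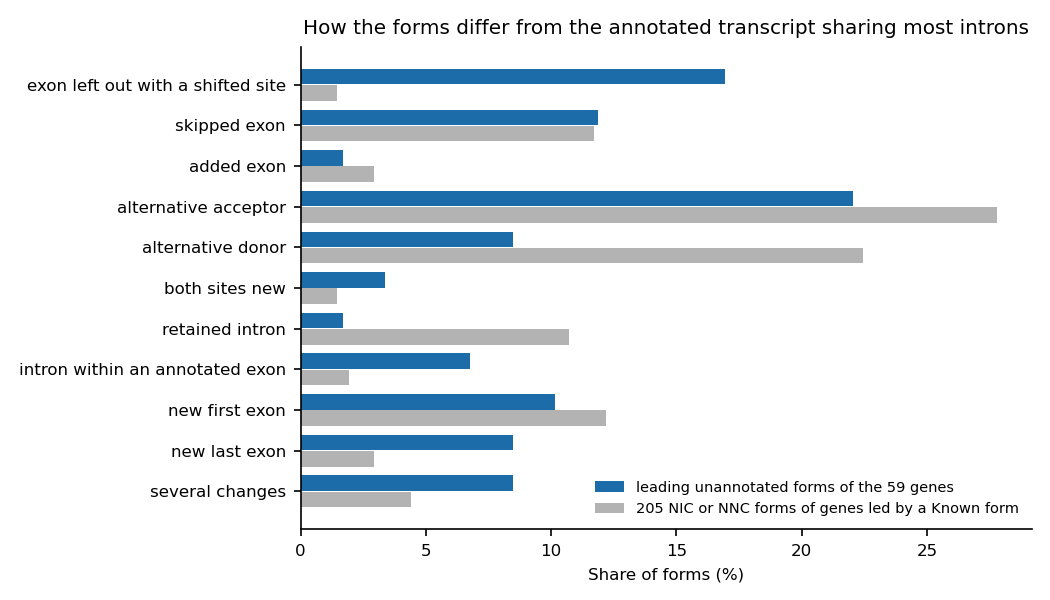
Share of forms (x axis, percent) of each structural kind (y axis) for the leading forms of the 59 genes (blue) and for 205 unannotated forms of genes led by an annotated form (grey). An exon left out with a shifted site is at 16.9% in blue and 1.46% in grey.

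Several of the forms that left out an exon concerned exons of very few bases. Phb2 encodes prohibitin 2, a scaffold of the inner mitochondrial membrane. Its leading form took 135 of 140 full-length reads in replicate 1 and 120 of 122 in replicate 2, or 97.4% ± 1.4 (SD, n = 2), and no read followed an annotated transcript. That form lacked a 6-base exon present in every complete coding transcript. Sept7 encodes a septin, a GTP-binding protein of the cytoskeleton. Its leading form, with 35 of 41 and 26 of 26 reads, lacked a 5-base exon of the annotated transcript with which it shared most introns. The sequences across these junctions are shown so that the missing bases can be seen, 5′ to 3′ on the transcript, with the small exon in capitals. They were read from the M21 transcripts on mm10. The Phb2 junction lies between exons at chr6:124716030-124716606 (plus strand) and the Sept7 junction at chr9:25252699-25265394 (plus strand).
Phb2 annotated: aagttttactcgGGGAAGtgacagcctcat
Phb2 leading form: aagttttactcgtgacagcctcat
Sept7 annotated: gcggcaccatggTTTGTcaaccgaagaac
Sept7 leading form: gcggcaccatggcaaccgaagaac

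In other genes the small exon was missing and the exon before it ran on past the donor of the annotated transcript compared. Pitpna and Pitpnb encode phosphatidylinositol transfer proteins. The leading form of Pitpna took 92 of 95 reads in replicate 1 and 60 of 62 in replicate 2, and lacked an exon of 8 bases while gaining 4 bases of the following intron. Pitpnb, with 38 of 53 and 13 of 30 reads, lacked an 8-base exon and gained 8 bases. Capn2 encodes the large subunit of a calcium-dependent protease, and its leading form had 42 of 42 and 29 of 33 reads. There a 12-base exon was missing and 17 intron bases were gained. Uchl1 and Uchl3 encode ubiquitin C-terminal hydrolases, the first of them abundant in neurons and neuroendocrine cells. Both lacked a 12-base exon, with 26 of 33 and 40 of 49 reads for Uchl1 and 28 of 32 and 24 of 28 for Uchl3. Every junction of the Uchl3 form is annotated in some transcript, and only their combination is not. For Uchl1 the exon is that of the closest complete coding transcript, and against the annotated transcript sharing most introns its form had another first exon. Lmf1 encodes lipase maturation factor 1, and its leading form, with 29 of 30 and 28 of 28 reads, lacked an 11-base exon.

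The next sequences show what replaced the exon: capitals mark the small exon in the annotated transcript and the gained bases in the leading form. Spans run between the flanking exons, at chr11:75603480-75609105 for Pitpna, chr1:182481658-182484203 for Capn2 (minus strand), chr5:66676322-66676944 for Uchl1, chr14:101654105-101665761 for Uchl3, chr17:25585852-25612296 for Lmf1 and chr13:58393774-58394076 for Hnrnpk (minus strand), with the others on the plus strand.
Pitpna annotated: ctgcagaaccgTTATTACAaatgagtacat
Pitpna leading form: actgcagaaccgGTGAaatgagtacatg
Capn2 annotated: atctatgagGTTCCAGAGGAGctaacaggg
Capn2 leading form: tatgagGTACCGGCAGAGGATGGctaaca
Uchl1 annotated: aaccccgagATGCTGAACAAAgtgttggcc
Uchl1 leading form: taaccccgagGTAAGCATAgtgttggcca
Uchl3 annotated: aaccctgagGTCACCAACCAGtttctcaag
Uchl3 leading form: accctgagGTGAGCGCGGCCGGtttctcaa
Lmf1 annotated: gcagatctgCCACAGTCTTGgatgggagt
Lmf1 leading form: agggcagatctgGTAAgatgggagtcac
Hnrnpk annotated: accacagGGTGGTTCTGGATATGactattc
Hnrnpk leading form: accacagGTTGAGTATCAATAATactattc

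In all 6 of these leading forms the gained bases open with GT, the first bases of the annotated intron. Hnrnpk encodes an RNA-binding protein that takes part in splicing and translation. Its leading form had 78 of 261 reads in replicate 1 and 48 of 138 in replicate 2, and no full-length read followed any of its 34 annotated transcripts. The 16 gained bases had the same length as the missing exon, and 8 of the 16 positions were identical. These letters are those of the genome at the deposited coordinates, since the files used here hold transcript models and not the bases of the reads.

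Longer small exons were replaced in the same manner. Suds3, a subunit of the Sin3 corepressor complex, had its form at 72 of 103 and 69 of 93 reads, with a 20-base exon missing and 20 bases gained at the neighbouring sites. Chmp1a, an ESCRT-III protein of membrane remodelling, had it at 81 of 89 and 64 of 71 reads, with a 20-base exon missing and 25 bases gained. Txnrd2, the mitochondrial thioredoxin reductase, had it at 54 of 67 and 47 of 66 reads, again with a 20-base exon missing and 25 bases gained. Uckl1, a uridine-cytidine kinase family member, had it at 10 of 26 and 6 of 20 reads, with a 17-base exon missing and 13 bases gained. For Chmp1a and Uckl1 these changes are relative to the closest complete coding transcript. Against the annotated transcript sharing most introns, the Chmp1a form had another first exon and the Uckl1 form a donor moved by 13 bases. Col6a1 encodes a chain of collagen VI, and its form took 36 of 40 and 38 of 45 reads. That form lacked a 9-base exon and, elsewhere, a pair of neighbouring 21-base exons. Rps24, a protein of the small ribosomal subunit, led with 38 of 65 and 71 of 101 reads. Against the annotated transcript sharing most of its introns, that form lacked a 20-base exon after the stop codon and gained 18 bases. No full-length read in either library followed that transcript. The annotated transcript with most reads (9 in replicate 1, 17 in replicate 2) was also the closest complete coding one. Relative to it, the form had an added 36-base exon in the coding region. The frame of the form then met another stop codon, with 131 codons against 133.

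Whether this pattern followed exon length was examined over all genes. For each gene the shortest internal exon was taken in every complete coding transcript, and the gene was placed by the transcript in which that exon was longest, so that no coding transcript avoids an exon of that length or shorter. Where that length was at most 12 bases, 10 of 10 genes were led by an unannotated form, 9 of them among the 59 and the other Idh3g. At 13 to 20 bases 4 of 8 genes were (Uckl1, Chmp1a, Suds3 and Mrpl33), and Mau2, Rnf5, Nap1l1 and Tle2 were not. At 21 to 27 bases 0 of 52 genes were, which allows a share of up to 5.77%, and at 28 bases or more 49 of 2718 were, or 1.80% (Wilson 95% interval 1.37% to 2.38%). The leading forms entered the rule that chose the 59, so these shares describe where they lie and carry no test.

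The same reads were also counted exon by exon, as a description. Among the 3030 genes, 7 exons of at most 12 bases were shared by every complete coding transcript of their gene. All 7 lie in genes that met the rule, so their full-length reads are those that chose the genes. Of the full-length reads across them, 0 of 471 in replicate 1 and 0 of 494 in replicate 2 held the exon, which allows up to 0.637% and 0.607%. Partial (ISM) reads, which the rule did not use, held these exons in 0 of 26 and 0 of 13 cases, which allows up to 11.5% and 23.1%. Col6a1 alone gave 19 of these 26 and 9 of these 13, and Pitpnb, Uchl1 and Uchl3 had no partial read there in either library. For 7 exons of 13 to 20 bases, 26.0% of 443 full-length reads and 22.8% of 461 held the exon. They split into 4 exons held by 4.31% of reads or fewer (Uckl1, Chmp1a, Suds3 and Mrpl33) and 3 held by 89.8% or more (Rnf5, Nap1l1 and Tle2). Partial reads, from the same libraries, held these exons in 6 of 6 and 2 of 2 cases. Of the 4 exons seldom held, only that of Suds3 had a partial read, 1 in replicate 2, which held it. For 58 exons of 21 to 27 bases the shares were 97.1% and 97.2%, and the 2 exons below 50% were the neighbouring pair of Col6a1. For 257 exons of 28 to 40 bases they were 99.3% and 99.4%.

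**Figure D3:**
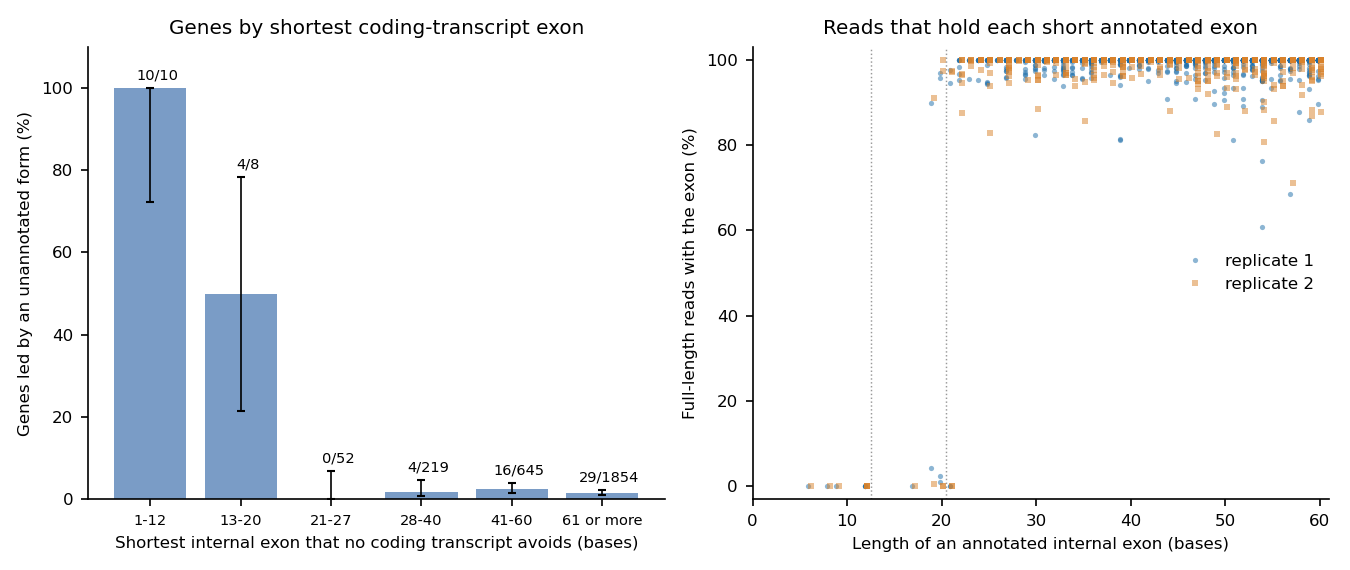
Left: genes led by an unannotated form (y axis, percent, with Wilson 95% intervals and counts above the bars) by the shortest internal exon that no complete coding transcript avoids (x axis, bases). Right: full-length reads that hold an annotated internal exon (y axis, percent) by its length (x axis, bases), for exons found in every complete coding transcript of a gene; circles are replicate 1, squares replicate 2, and dotted lines mark the upper ends of the classes of 1 to 12 and 13 to 20 bases. Every exon of at most 12 bases is at 0%.

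Gbe1, the glycogen branching enzyme, had a leading form with 32 of 32 reads in replicate 1 and 22 of 26 in replicate 2. Both ends of 1 intron were moved by 4 bases relative to Gbe1-203, at chr16:70401849-70433549 (plus strand). The spliced sequence was the same, because the 4 bases GTAG occur at both ends, so form and annotation differ in coordinates and not in the RNA they spell.
Gbe1 annotated: tccaagctgaagGTAGttattactagta
Gbe1 leading form: tccaagctgaagGTAGttattactagta

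Of the 13 forms with a moved acceptor, 7 differed from the annotated transcript by exactly 3 bases, with 5 losing and 2 gaining them. That is 53.8% of the 13 (Wilson 95% interval 29.1% to 76.8%), and among the acceptor forms of genes led by an annotated form it was 28 of 57, or 49.1% (36.6% to 61.7%). The genes were Ctbp1 (a transcriptional corepressor), H2afy (the histone variant macroH2A1), Hgs (a protein of endosomal sorting), Pitrm1 (a mitochondrial peptidase), Cars2 (the mitochondrial cysteinyl-tRNA synthetase), Hspbp1 (a cochaperone of Hsp70) and Fam114a2. In the sequences that follow, capitals mark the bases between the alternative acceptors, which end in AG like an acceptor itself. Spans are chr5:33248683-33249107 for Ctbp1 (minus strand), chr13:56096231-56104302 for H2afy (minus strand), chr11:120478754-120479090 for Hgs (plus strand) and chr8:11530424-11537272 for Cars2 (minus strand).
Ctbp1 annotated: ggctgcctacaggtaccctccagg
Ctbp1 leading form: ggctgcctacagCAGgtaccctccagg
H2afy annotated: cggaagtctaagAAGaagcagggagaa
H2afy leading form: cggaagtctaagaagcagggagaa
Hgs annotated: ccctttagtgagCAGtaccagaatggg
Hgs leading form: ccctttagtgagtaccagaatggg
Cars2 annotated: ctgcagagccagCAGgtgactctgaca
Cars2 leading form: ctgcagagccaggtgactctgaca

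At the Ctbp1 junction, 147 full-length reads used the acceptor of the leading form and 23 the other in replicate 1, against 120 and 22 in replicate 2, which is 85.5% ± 1.4 (SD, n = 2) for the form's acceptor. The annotation already held both Ctbp1 acceptors, each in another transcript. Among the 7 genes only the Fam114a2 form used an acceptor that M21 lacks. The leading form of Ctbp1 had 101 of 171 and 87 of 145 full-length reads. H2afy used the acceptor of its leading form in 65 reads and the other in 34 in replicate 1, and in 35 and 27 in replicate 2. Its leading form had 40 of 100 and 18 of 62 full-length reads. That of Hgs had 33 of 42 in replicate 1 and 25 of 39 in replicate 2, and that of Cars2 had 19 of 24 and 13 of 27. The form led with 20 of 38 and 15 of 27 reads in Pitrm1, with 13 of 26 and 9 of 24 in Hspbp1, and with 22 of 29 and 20 of 34 in Fam114a2. Over the 7 genes the form's acceptor took 59.5% to 95.2% of reads at the junction in replicate 1 and 56.2% to 84.5% in replicate 2. It was higher in replicate 1 in all 7, from 0.20 percentage points in Pitrm1 to 28.7 in Fam114a2. Partial reads, outside the rule, were counted for the form's junction and for that of the annotated transcript sharing most introns. They had these 12 and 0 times in replicate 1, and 12 and 3 times in replicate 2. Hgs alone gave 6 of the 12 in each library, and Hspbp1 and Fam114a2 had no partial read there in either.

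**Figure D4:**
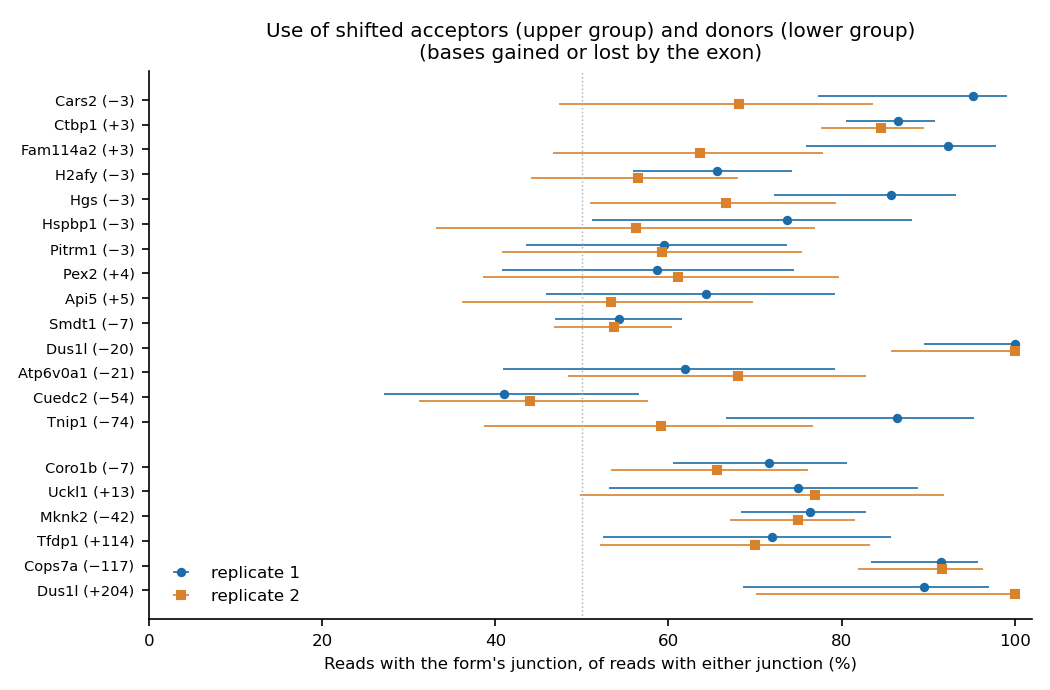
Full-length reads with the junction of the leading form (x axis, percent), for forms with a moved acceptor (upper group) or donor (lower group). The percentage is of reads with that junction or the one of the annotated transcript sharing most introns. The form's junction can itself be annotated in another transcript. The bases gained or lost by the exon stand beside each gene. Circles are replicate 1, squares replicate 2, bars Wilson 95% intervals. Of the genes drawn, Cuedc2 is the only one with both libraries left of the dotted line at 50%.

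Other sites moved by a few bases. Smdt1 encodes EMRE, a small subunit of the mitochondrial calcium uniporter. It split almost evenly, with 84 of 174 reads in the leading form and 72 in the annotated transcript in replicate 1, and 99 of 204 and 85 in replicate 2. The form's exon is 7 bases shorter. In Coro1b, an actin-binding coronin, the donor moved by 7 bases, between neighbouring copies of the same 7 letters. Its form had 51 of 90 reads in replicate 1 and 34 of 85 in replicate 2. The first of these changes lay after the stop codon, at chr15:82348040-82348850, and the second before the start codon, at chr19:4148729-4149342 (both plus strand).

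Neither change touched the open reading frame. The same held for Mknk2, a kinase that phosphorylates eIF4E, whose donor moved by 42 bases and whose form had 82 of 133 and 87 of 137 reads. It also held for Cops7a, a COP9 signalosome subunit, whose donor moved by 117 bases and whose form had 64 of 93 and 46 of 67 reads. At these donors the form's junction took 75.7% ± 0.94 of reads in Mknk2 and 91.6% ± 0.14 in Cops7a (SD, n = 2 each). Cuedc2 had the lowest share in replicate 1, with 9 of 45 reads, and 13 of 53 in replicate 2, for an acceptor moved by 54 bases.

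Further moved sites rested on fewer reads. Pex2, needed to build peroxisomes, gained 4 bases at an acceptor in 16 of 35 and 10 of 34 reads, and Api5, an inhibitor of apoptosis, gained 5 in 18 of 28 and 15 of 30. Atp6v0a1, a subunit of the vacuolar proton pump, lost 21 bases in 11 of 24 and 16 of 26 reads. Tnip1, which restrains NF-κB signalling, lost 74 bases in 14 of 23 reads in replicate 1 and 7 of 22 in replicate 2. In Tfdp1, a partner of E2F factors, the donor moved by 114 bases in 12 of 33 and 10 of 32 reads. Dus1l, with 15 of 34 and 9 of 24 reads in its leading form, changed both an acceptor, by 20 bases, and a donor, by 204. The comparison was with Dus1l-201, the annotated transcript sharing most introns. At that acceptor 33 full-length reads in replicate 1 and 23 in replicate 2 used the unannotated site, and 0 used the Dus1l-201 site. Of partial reads 6 and 22 used the unannotated site and 0 the Dus1l-201 site. Another annotated acceptor of the gene lay 3 bases from the unannotated site, and its reads were not counted here.

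Other exon skips involved larger exons. Cd47 encodes a surface protein that restrains phagocytosis, and its form, without a 63-base exon, had 23 of 45 and 33 of 58 reads. Xpnpep1, an aminopeptidase, lacked an 89-base exon in 38 of 60 and 22 of 39 reads. Agap3, a GTPase-activating protein for Arf, lacked 2 exons of 171 and 138 bases in 21 of 28 and 17 of 27 reads. Pacsin3 lacked a 64-base exon before the start codon in 11 of 27 and 24 of 43 reads, and Snrk, a kinase, a 90-base exon in 8 of 36 and 10 of 37. The Snrk skip is relative to Snrk-205, which had 2 and 1 reads. Against Snrk-203, the annotated transcript with most reads (7 and 5), the form had 173 added exon bases. Against Snrk-201, the closest complete coding transcript, it had 123. Map7d1, which lacked a 111-base exon beside another change, had 9 of 41 and 12 of 32. The 1 form classed above as an added exon was that of Nprl3, a subunit of the GATOR1 complex. It held a 39-base exon and had 15 of 34 and 17 of 28 reads. In each of these forms every junction was annotated in some transcript, and only their combination was not.

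Introns within annotated exons were seen in Ptov1 (62 of 137 and 67 of 146 reads), Csnk1g2 (67 of 88 and 66 of 78), Gm28382 (38 of 51 and 18 of 20) and Hap1 (7 of 22 and 10 of 22). The Ptov1 intron of 184 bases and the Hap1 intron of 172 bases lay after the stop codon. That of Csnk1g2, a casein kinase, removed 81 bases of coding sequence. The Gm28382 intron was 188 bases long, at chr1:91483511-91483698. Neither site was annotated in Gm28382 or in Hap1, and both introns opened with GT and closed with AG. Those of Ptov1 and Csnk1g2 are annotated in other transcripts of their genes.

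Changes at the transcript's start included Fmo1, a flavin monooxygenase, with 23 of 26 and 24 of 34 reads, and Slc25a22, a mitochondrial glutamate carrier, with 14 of 45 and 17 of 40. Csad, an enzyme of taurine synthesis, had 10 of 33 and 7 of 29. In all 3 the change lay before the start codon. Every junction of these 3 forms is annotated in some transcript of the gene, and only their combination is not. Aldh1l1, a folate enzyme, had a form of 22 of 65 and 21 of 52 reads that began within the gene and did not hold the annotated start codon. At the other end, Cyhr1 (47 of 119 and 46 of 128 reads), Pnpla3 (26 of 62 and 29 of 60) and Mgrn1, a ubiquitin ligase (8 of 33 and 9 of 35), used another last exon. So did Flywch1, with 10 of 20 and 15 of 28 reads. Cct6a joined unannotated sites across an intron of 50376 bases in 101 of 106 and 54 of 60 reads, with GT at its start and AG at its end.

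Some annotated transcripts held gaps of 1 to 5 bases. In Nadk2, the mitochondrial NAD kinase, Nadk2-203 skips 1 base at chr15:9100146, and the leading form (13 of 24 and 14 of 22 reads) ran through it. A coding transcript of Acbd4 likewise skips 1 base that its form, with 5 of 21 and 5 of 22 reads, held, and a transcript of Gm21887 skips 5 bases that the leading form (33 of 50 and 34 of 46 reads) held. Capitals mark those bases.
Nadk2 annotated: gacggcccatgggagaagcagaag
Nadk2 leading form: gacggcccatggGgagaagcagaag
Gm21887 annotated: ccatgcccacggacggacgcacgg
Gm21887 leading form: ccatgcccacggGACGCacggacgcacgg

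The leading forms held 26 junctions that M21 lacks, in 24 of the genes. The donor bases could be read for 14 of them, of which 13 were GT and 1, in Uchl1, was GC, and the 11 acceptors that could be read were all AG. Both ends could be read in 8 junctions, of which 7 were GT-AG, or 87.5%. In the annotated junctions of the same forms 83 of 84 were GT-AG, and in unannotated junctions of other genes 16 of 19.

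The open reading frame of each leading form was followed from the start codon of its closest complete coding transcript. Start, stop and length were unchanged in 20 genes, start and stop held with another length in 13, and another stop codon ended the frame in 16. In the remaining 10 it was not determined: 7 forms had a base not covered by the sequences used here, 1 lacked the start codon, and 2 genes had no complete coding transcript. Of the 12 genes in which no coding transcript avoids an exon of 20 bases or less, 6 met another stop, 2 kept the stop and 4 were not determined. The models of Sept7, Uchl3 and Chmp1a gave 25, 23 and 34 codons, against 437, 230 and 196 in the annotation. Those of Pitpna, Lmf1 and Capn2 gave 102, 168 and 441 codons, against 271, 574 and 700. Hnrnpk gave 368 against 464. Phb2 kept its stop, with 297 against 299 codons, since the missing exon is 6 bases long. These lengths describe the deposited models, and no protein was measured.

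**Figure D5:**
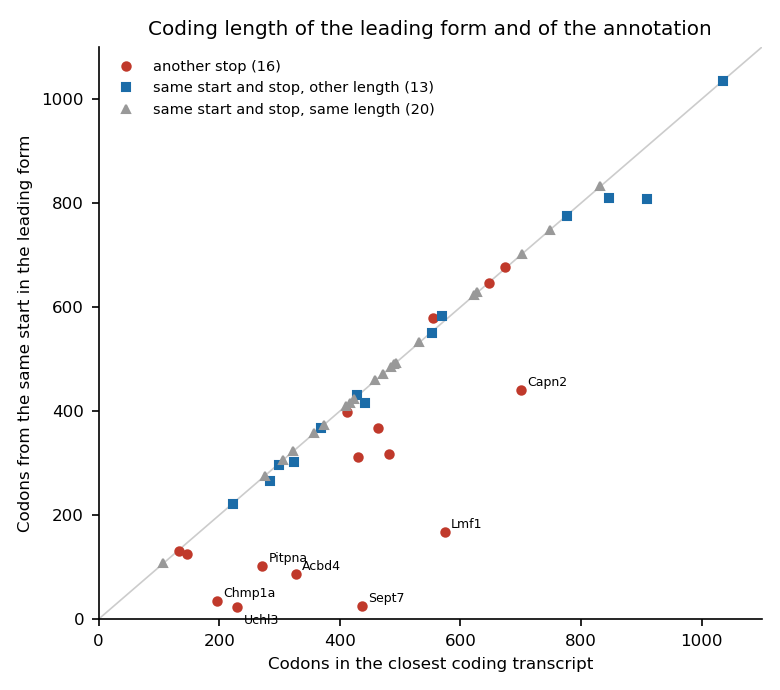
Codons from the annotated start codon in the leading form (y axis) against codons in the closest complete coding transcript (x axis), for the 49 genes where both were determined. Symbols give the outcome, and the grey line marks equal length. Sept7, Uchl3, Chmp1a, Pitpna, Lmf1, Capn2 and Acbd4 are the labelled genes well below the line.

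Fixed gene lists covered genes typical of the gland and genes of general cell functions. Steroidogenesis had 1 member, Hsd3b1, of 19 listed genes with enough reads, and cholesterol and lipoprotein genes had Dhcr7 of 15. Cytosolic ribosomal proteins had Rps24 of 79, and SR proteins and hnRNPs had Hnrnpk of 20. None came from 14 chromaffin cell genes, 73 genes of oxidative phosphorylation or 32 proteasome genes. Over all 3030 genes the share was 2.15%, and no test was made on the lists. Hsd3b1 encodes 3β-hydroxysteroid dehydrogenase, which makes progesterone from pregnenolone. It had 2964 reads (6551 CPM) in replicate 1 and 2688 (5804 CPM) in replicate 2, but 2694 and 2375 of them were partial. Its leading form, with another first exon, rested on 17 of 47 and 16 of 45 full-length reads. Dhcr7, the last enzyme of cholesterol synthesis, was similar: 282 of 338 and 228 of 254 reads were partial, and its form had 14 of 33 and 12 of 26. Over the 59 genes partial reads made up a median of 6.54% and 7.14%, against 3.33% and 4.00% over the 3030.

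Fisher's exact test (two-sided), run on each of the 3030 genes with Benjamini-Hochberg adjustment, compared the leading form's share between the libraries. At an adjusted p under 0.05 and a difference of at least 10 percentage points, 0 of the 59 genes were called, against 0.066% of all genes. By the adjusted p alone 0 of the 59 were called too, against 0.198% of all genes. The smallest adjusted p was 0.915, for Pitpnb (71.7% in replicate 1 and 43.3% in replicate 2). At an unadjusted p under 0.05 there were 5 (Pitpnb, Capn2, Coro1b, Gbe1 and Cars2), or 5 of 59, where all genes had 131 of 3030. The share was higher in replicate 1 in 29 genes and in replicate 2 in 30, with a median absolute difference of 6.62 points. With a median of 41 and 37 full-length reads per gene, small differences could not be detected.

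The summed level of each gene over all read classes was compared in the same way over 8135 genes with at least 10 reads. By an adjusted p under 0.05 together with a 2-fold or larger change (1 CPM added to each level), 1 of the 59 genes was called, against 3.16% of all genes tested. It was Gm28382, with 83 reads (183 CPM) in replicate 1 and 30 reads (64.8 CPM) in replicate 2, a log2 difference of 1.49 (adjusted p 1.07e-05, Fisher's exact test). Hnrnpk, with 280 and 167 reads, was past the adjusted p and short of 2-fold, at a log2 difference of 0.78 (adjusted p 1.05e-06, Fisher's exact test). The same held for Hsd3b1, Dhcr7, Cct6a and H2afy. The share of all genes past the adjusted p alone is not given here, so whether these genes stand out cannot be told. These tests compare 2 libraries and not conditions.

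At the lower limit of 20 reads, Flywch1 (20 and 28 full-length reads), Uckl1 (26 and 20) and Gm28382 (51 and 20) were just inside. Mbnl2 (21 and 19), Zmynd11 (27 and 19) and Hdac5 (19 and 29), also led by an unannotated form in both libraries, were just outside.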

How the data were processed

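The authors deposited whole read counts per transcript model and library, with no normalization, and the exon structure of each model, on mm10 with GENCODE M21, per the file headers and readme. Class names follow TALON. No source used here names its version or the aligner. The members and gene lists were chosen with earlier results of these data known. Named genes are the 20 members with most full-length reads, up to 3 of each structural kind, list members, called genes and those nearest the limit. Members named beyond that, for short exons, moved sites or exact repeats, were chosen after their values were seen, as were the structural kinds exon left out with a shifted site and intron within an annotated exon, and the analysis by exon length.

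Spike-in contigs were left out of totals (458001 and 479002 deposited reads). Models were matched between libraries by intron chain. CPM is a count scaled to the endogenous reads of its library. Exon and splice-site letters were rebuilt from 141767 M21 transcripts and RefSeq GRCm38.p6 promoters, with 0 disagreements; bases outside them are not covered. Wilson 95% intervals, the floor of 3 counts and Fisher's exact test (SciPy 1.17.1) cover counting error only, since reads without molecular identifiers are not independent molecules. With 1 group no count model between conditions could be fitted. The tests were tested on simulated data. TMM factors (edgeR 4.0.16) and DESeq2 1.42.0 size factors served as alternatives.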

Additional observations from a re-analysis of the deposited data

How the results depend on the processing

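No paired analysis was possible because there is 1 group. The number of genes led by an unannotated form was 59 of 3030, 96 of 4671 with a minimum of 10 full-length reads and 19 of 1321 with 50. It was 61 with ties or with partial reads counted as forms, and 81 to 85 from 1 library alone. The median share over members, with each gene's libraries averaged, was 54.1%, 52.8% with partial reads counted as forms, and 55.8% to 56.7% leaving out a replicate. Genes with a share differing between libraries numbered 2, against 6 with no minimum difference and 22 with partial reads as forms, with 0 members called under any setting tried. Level calls stayed between 212 and 257, and Gm28382 was the member called each time. Against the annotated transcript with most Known reads, an exon left out with a shifted site fell to 6 of 59, against 10, several changes rose to 13, against 5, added exons to 4, against 1, and both sites moved and kept introns were 0. Against the closest complete coding transcript, chosen after seeing the data, there were 3 added exons, 3 moved donors against 5, and 1 form with both sites moved. Genes with an unavoidable exon of at most 12 bases and an unannotated lead were 10 of 10, 12 of 13 with a minimum of 10 reads (Apbb3 was not led so), 3 of 3 with 50, and 10 of 10 or 11 of 11 leaving out a replicate, all chosen after seeing the data. Depth limits the shares: for Flywch1, with 10 of 20 reads, the Wilson interval ran from 29.9% to 70.1%. Bases outside annotated exons could not be read for 18 of 26 unannotated junctions.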
